A study of Homo sapiens with 18 samples.

Results

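The genes described here are 9 in which mutations or expansions cause, or raise the risk of, amyotrophic lateral sclerosis (ALS) and frontotemporal dementia: C9orf72, TARDBP, SOD1, TBK1, OPTN, UBQLN2, GRN, ATXN2 and MATR3. They were taken by symbol from a table of 28394 genes measured in HEK293T cells, and all 9 were among the 15447 genes that had enough counts to be tested. HEK293T is an established human embryonic kidney line. The study asked whether ribosome stalling on a poly-adenylate stretch and on poly-PR gave similar transcriptional responses, with poly(A) RNA-seq of 3 stable lines and 18 libraries.

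Every line carried GFP joined through the self-cleaving P2A peptide to a second sequence, under a Tet-inducible promoter. In the ChFP line, the negative control, that sequence was a red fluorescent protein. In the poly-adenylate line it was poly-adenylate, and in the 102xPR line it was 102 proline-arginine repeats. Each line was studied uninduced and after 48 h of induction with doxycycline, given in the labels as 500 ng/μl, with 3 libraries in each of the 6 groups. Whether a line was a single clone, and whether the libraries of a group were separate cultures, is not stated in any source used, so p-values measure the spread between these libraries, which may be technical. Reads on the reporters were not analysed here, so how strongly each was induced has no value. Library totals ran from 15020739 to 27331102 counts. All 5 markers chosen for HEK293T cells (NEFL, NEFM, INA, VIM and PAX2) had counts in every library. Their summed level was 704 to 805 CPM (counts scaled to library size) in 5 groups and 936 to 979 CPM in induced 102xPR cells. The 5 did not move together: by the test given below, 2 rose, 1 fell and 2 did not pass on 102xPR induction. Of all genes, 33.8% rose and 33.4% fell. Summed blood markers reached 2.77 CPM at most, and CD3E and KRT14 were at 0 in all 18 libraries. Fibroblast markers, 4 in all, summed to 22.6 to 31.8 CPM in 5 groups and to 15.1 to 15.9 CPM in induced 102xPR cells, and the 3 hepatocyte markers to 0.119 to 0.51 CPM and to 0.918 to 1.37 CPM. The part of these shifts in the results below was not tested. In bulk RNA, fewer cells of a kind and less RNA per cell cannot be told apart.

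Libraries also stood apart in a way the labels do not give. The first principal component, which held 57.9% of the variance, separated induced 102xPR cells from the other 5 groups, and the second held 7.61%. Of the 18 libraries, 8 lay on one side of the second component (set A: all uninduced ChFP libraries with the third induced one, induced 102xPR replicates 1 and 2, and replicates 2 and 3 of the uninduced poly-adenylate line) and 10 on the other (set B). Transcripts of the mitochondrial genome took 4.46% to 7.15% of counts in set A and 2.96% to 5.16% in set B. All uninduced 102xPR libraries were in set B, so induced replicate 3 was the only induced 102xPR library that could be compared with them within a set.

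C9orf72 carries a GGGGCC repeat in an intron which, when expanded, is the most common known genetic cause of ALS and frontotemporal dementia. Expanded repeats are translated without a start codon into dipeptide repeat proteins, of which arginine-rich poly-PR is among the most toxic in cell models. The C9orf72 protein works with SMCR8 and WDR41 in autophagy and membrane traffic. TBK1, OPTN and UBQLN2 act in autophagy and in the delivery of ubiquitinated proteins, GRN encodes the lysosomal growth factor progranulin, and SOD1 detoxifies superoxide. TARDBP (TDP-43), MATR3 and ATXN2 encode RNA-binding proteins, and TDP-43 is the main component of the inclusions in most ALS.

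Promoter windows in the RefSeq table (GRCh38.p14), which run from 250 bases before to 50 bases after a start site, were matched for 7 of the 9 genes, in 10 windows. Of these, 4 are shown: the C9orf72 window that holds the GGGGCC repeat, and the windows of GRN, UBQLN2 and TARDBP. On 102xPR induction GRN fell, and UBQLN2 and TARDBP rose. Capitals mark GGGGCC on the strand shown.
C9orf72, GRCh38.p14 chr9:27573432-27573731, minus strand: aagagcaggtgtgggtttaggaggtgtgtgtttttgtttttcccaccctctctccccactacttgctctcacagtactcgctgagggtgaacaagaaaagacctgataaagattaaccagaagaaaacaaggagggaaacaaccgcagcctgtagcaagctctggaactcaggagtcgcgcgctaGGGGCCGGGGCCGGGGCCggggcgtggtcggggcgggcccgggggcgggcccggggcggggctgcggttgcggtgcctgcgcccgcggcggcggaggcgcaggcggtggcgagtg
GRN, GRCh38.p14 chr17:44345052-44345351, plus strand: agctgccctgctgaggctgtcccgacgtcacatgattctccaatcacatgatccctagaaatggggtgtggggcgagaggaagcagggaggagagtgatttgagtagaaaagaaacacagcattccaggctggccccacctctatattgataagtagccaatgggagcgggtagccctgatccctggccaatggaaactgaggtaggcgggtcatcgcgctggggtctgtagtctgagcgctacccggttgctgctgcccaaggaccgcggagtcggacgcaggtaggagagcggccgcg
UBQLN2, GRCh38.p14 chrX:56563377-56563676, plus strand: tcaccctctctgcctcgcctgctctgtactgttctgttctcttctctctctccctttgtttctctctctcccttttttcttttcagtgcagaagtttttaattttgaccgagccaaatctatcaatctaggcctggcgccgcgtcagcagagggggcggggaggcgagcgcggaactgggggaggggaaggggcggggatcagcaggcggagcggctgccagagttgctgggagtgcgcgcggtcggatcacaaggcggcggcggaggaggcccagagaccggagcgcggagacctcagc
TARDBP, GRCh38.p14 chr1:11012404-11012703, plus strand: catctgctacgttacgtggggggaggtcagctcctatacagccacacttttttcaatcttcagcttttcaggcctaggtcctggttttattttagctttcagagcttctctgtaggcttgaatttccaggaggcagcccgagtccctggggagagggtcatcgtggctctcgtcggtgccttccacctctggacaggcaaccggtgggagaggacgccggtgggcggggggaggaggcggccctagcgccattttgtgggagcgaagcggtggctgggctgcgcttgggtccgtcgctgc

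In the reference sequence the C9orf72 window held 3 GGGGCC units in tandem, at chr9:27573529-27573546. By GENCODE 29 these bases lay in an intron of 5 of the 8 C9orf72 transcripts and in an exon of none of them. The other C9orf72 window held no GGGGCC. GRN had 1 match, on the opposite strand, and UBQLN2, TARDBP and TBK1 had none. Among windows not shown, the 2 OPTN windows overlap and hold the same 2 matches, and MATR3 had 1 match in each window, on the opposite strand in its first. GGGGCC, searched on both strands, was present in 36.2% of all 35116 windows. CACGTG (E-box, 7.26% of windows) was found once, in TBK1, while TGATGNAA (the C/EBP-ATF element, 3.62%) and TGANTCA (the AP-1 element, 7.71%) were found in no window of the 7 genes. The G+C content of the windows shown was 64.7% for C9orf72, 58.7% for GRN, 61.3% for UBQLN2 and 60.0% for TARDBP.

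Levels of the 9 genes were compared with one another as CPM per kilobase of exon, taking the median over 18 libraries. The length joined the exons of all annotated transcripts (2019 bases for SOD1, 12090 for MATR3 and 16504 for ATXN2). The order depends on this length: in plain CPM the lowest MATR3 library (464) was above the highest of SOD1 (460) and of TARDBP (390). SOD1 was highest at 208, and its lowest library (150) exceeded the highest library of any other gene. TARDBP followed at 55.7, with no overlap with MATR3 (42.0). MATR3 and GRN (41.0) overlapped, since GRN ran from 24.2 to 46.0. UBQLN2 (15.7) and TBK1 (8.82) stood apart from their neighbours in this order. OPTN (4.15), ATXN2 (3.55) and C9orf72 (3.13) overlapped, and their order changed between groups as ATXN2 reached 6.50 in induced 102xPR cells.

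Induction of 102xPR changed 6 of the 9 genes, 3 in each direction, tested with the quasi-likelihood method of edgeR, with p-values adjusted (Benjamini-Hochberg) over all genes tested and called under 0.05. ATXN2, UBQLN2 and TARDBP rose, and GRN, SOD1 and MATR3 fell. The uninduced and induced libraries of each of these 6 did not overlap, where 70.0% of all genes did not. TBK1, OPTN and C9orf72 itself did not pass. The 6 of 9 (66.7%) must be read against the whole table, in which 67.3% of genes passed in this comparison, so the share of the 9 genes that changed was near that of genes in general. By direction, 33.8% of all genes rose and 33.4% fell. The median log2 fold change of the 9 was -0.08, against -0.01 over all genes. CPM values below were scaled by TMM factors, and errors of a group are SD over its 3 libraries.

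**Figure D1:**
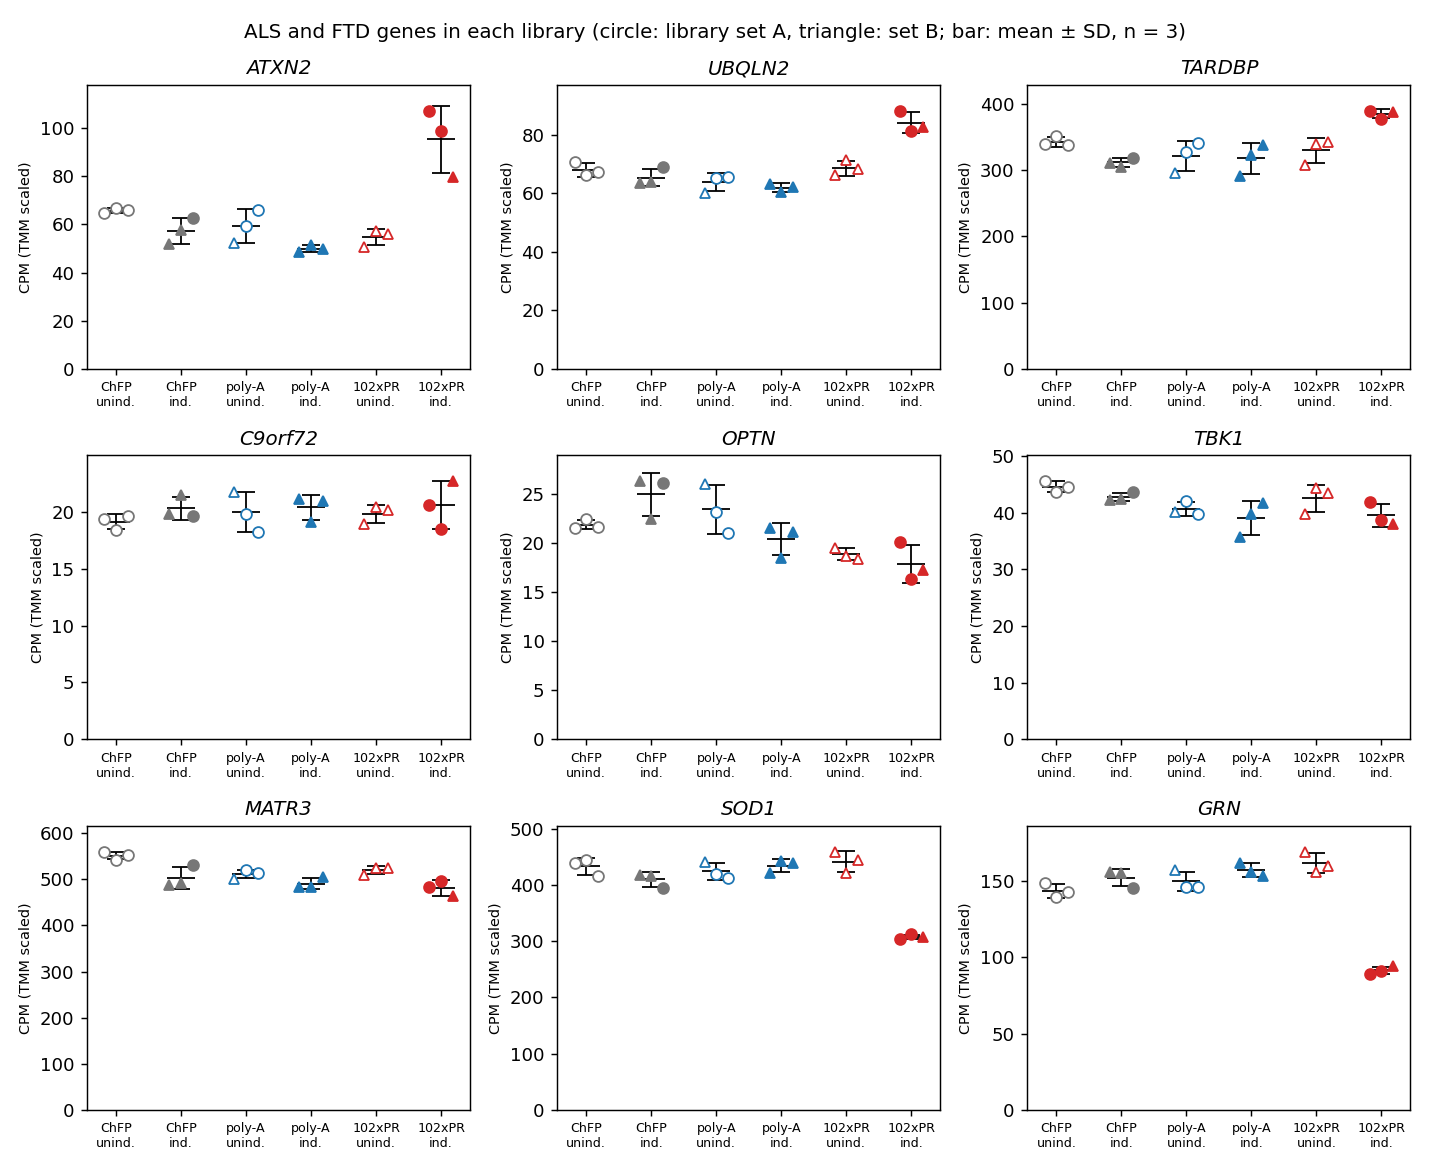
Level of each gene in every library, in CPM scaled by TMM factors (y axis, starting at 0), for the 6 groups (x axis: ChFP, poly-adenylate (poly-A) and 102xPR lines, uninduced with open and induced with filled symbols). Circles are libraries of set A and triangles of set B, and bars are the mean and SD of 3 libraries. The 3 induced 102xPR libraries lie below all other 15 for GRN and SOD1 and above all other 15 for ATXN2, UBQLN2 and TARDBP, while C9orf72 lies between 18.2 and 22.7 CPM throughout.

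GRN (GRCh38 chr17:44345086-44353102, plus strand) encodes progranulin, a secreted glycoprotein that is cut into granulins in the lysosome, and loss of 1 copy causes frontotemporal dementia. The GRN level in uninduced 102xPR cells was 169, 156 and 160 CPM in the 3 libraries. In induced 102xPR cells it was 89.0, 91.0 and 94.1 CPM. The groups did not overlap, and the induced libraries were also below the lowest library of either other line (140 CPM). GRN fell from 162 ± 6.71 to 91.4 ± 2.56 CPM, a log2 fold change of -0.82 ± 0.05 (SE) and a fold of 0.565 (edgeR adjusted p = 6.51e-13). Of all genes tested, 18.1% had a larger change in either direction.

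SOD1 (GRCh38 chr21:31659622-31668931, plus strand) encodes the cytosolic copper-zinc superoxide dismutase. Its level was 460, 422 and 445 CPM in uninduced 102xPR cells. After induction it was 304, 312 and 307 CPM. The induced libraries were close together and lay below every other library of the series, of which the lowest was 396 CPM in induced ChFP cells. The log2 fold change was -0.52 ± 0.04 (edgeR adjusted p = 3.38e-10), a fold of 0.696, and 36.6% of all genes changed by more.

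ATXN2 (GRCh38 chr12:111443485-111599676, minus strand) encodes ataxin-2, a partner of poly(A)-binding protein found in stress granules, whose intermediate-length glutamine expansions raise the risk of ALS. The ATXN2 level was 50.8, 57.2 and 56.1 CPM in uninduced 102xPR cells. It was 107, 98.9 and 79.9 CPM in induced replicates 1, 2 and 3. The groups did not overlap, but the induced libraries spread more widely than those of any other group, with replicate 3 lowest. ATXN2 rose from 54.7 ± 3.41 to 95.4 ± 14.1 CPM, a log2 fold change of 0.80 ± 0.09 (edgeR adjusted p = 4.55e-07) and a fold of 1.75. Induced replicates 1 and 2 belong to library set A and replicate 3 to set B. Within set B, where replicate 3 was the only induced 102xPR library, the log2 fold change was 0.54. A fit with a term for the library set gave 0.60 ± 0.06 (edgeR adjusted p = 1.53e-10). ATXN2 was also higher in set A outside the 102xPR line: the 2 set A libraries of uninduced poly-adenylate cells had 59.6 and 66.2 CPM and the set B library 52.1 CPM.

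UBQLN2 (GRCh38 chrX:56563639-56567868, plus strand) encodes ubiquilin-2, which carries ubiquitinated proteins to the proteasome. Its level was 66.3, 71.3 and 68.2 CPM in uninduced and 88.3, 81.5 and 82.6 CPM in induced 102xPR cells. Every induced library was above every library of the other 5 groups, of which the highest was 71.3 CPM. The log2 fold change was 0.29 ± 0.05 (edgeR adjusted p = 2.5e-05), a fold of 1.23. This was smaller than the change of 59.9% of all genes.

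TARDBP (GRCh38 chr1:11012344-11026420, plus strand) encodes TDP-43, a nuclear RNA-binding protein that represses cryptic exons and controls the level of its own mRNA. Its level was 308, 339 and 343 CPM in uninduced and 390, 378 and 388 CPM in induced 102xPR cells. The groups did not overlap, and the highest library of the other lines had 351 CPM. The log2 fold change was 0.22 ± 0.06 (edgeR adjusted p = 0.00099), a fold of 1.17, and 68.8% of all genes changed by more. In GENCODE 29, 28.99% of the exon bases of TARDBP are shared with a gene model on the same strand that has no row of its own in the table, AL109811.4.

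MATR3 (GRCh38 chr5:139293648-139331677, plus strand) encodes matrin-3, a nuclear matrix protein that binds RNA and DNA. Its level was 510, 525 and 526 CPM in uninduced and 483, 497 and 464 CPM in induced 102xPR cells. These groups did not overlap with each other, but induced ChFP cells (487, 492 and 531 CPM) and induced poly-adenylate cells (484, 483 and 505 CPM) overlapped with the induced 102xPR libraries. The log2 fold change was -0.11 ± 0.04 (edgeR adjusted p = 0.0238). The call did not hold with library totals in place of TMM factors (edgeR adjusted p = 0.0915), with a stricter filter (0.0524), or without uninduced replicate 2 (0.058), uninduced replicate 3 (0.0837) or induced replicate 3 (0.118). With the library set as a term, a set drawn from these same libraries, it held (log2 fold change -0.17 ± 0.04, edgeR adjusted p = 0.000405). Within set B, where replicate 3 was the only induced 102xPR library, the log2 fold change was -0.17. A second GENCODE gene model of the same name covers 42.5% of MATR3's exon bases.

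The autophagy genes TBK1 and OPTN did not pass on 102xPR induction. TBK1 (GRCh38 chr12:64451880-64502108, plus strand), a kinase that phosphorylates OPTN and other autophagy receptors, had 39.8, 44.3 and 43.5 CPM in uninduced and 41.9, 38.8 and 38.0 CPM in induced cells, with overlapping groups. Its log2 fold change was -0.10 ± 0.06 (edgeR adjusted p = 0.131), and without uninduced replicate 1 it passed (-0.15, adjusted p = 0.041). OPTN (GRCh38 chr10:13099449-13138308, plus strand) encodes optineurin, a receptor that links ubiquitinated cargo to the autophagosome. It had 19.5, 18.7 and 18.4 CPM in uninduced and 20.1, 16.4 and 17.3 CPM in induced 102xPR cells. The highest and lowest of these 6 OPTN libraries were both induced, and the log2 fold change was -0.08 ± 0.09 (edgeR adjusted p = 0.454). An antisense gene model, AC135279.3, overlaps 14.7% of TBK1's exon bases, and no source used here gives the strand setting of the counting.

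C9orf72 itself (GRCh38 chr9:27546545-27573866, minus strand) had 18.9, 20.4 and 20.1 CPM in uninduced and 20.6, 18.5 and 22.7 CPM in induced 102xPR cells. The induced libraries held both the lowest and the highest value. Its log2 fold change was 0.05 ± 0.08 (edgeR adjusted p = 0.575), with a 95% interval from -0.11 to 0.22. Of all genes tested, 92.7% had a larger change. With the library set as a term, the log2 fold change of C9orf72 was 0.16 ± 0.08 (edgeR adjusted p = 0.0733). Within set B, where replicate 3 was the only induced 102xPR library, it was 0.19. Over the 18 libraries C9orf72 ran from 18.2 to 22.7 CPM, and its 6 group means lay between 19.1 and 20.6 CPM.

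**Figure D2:**
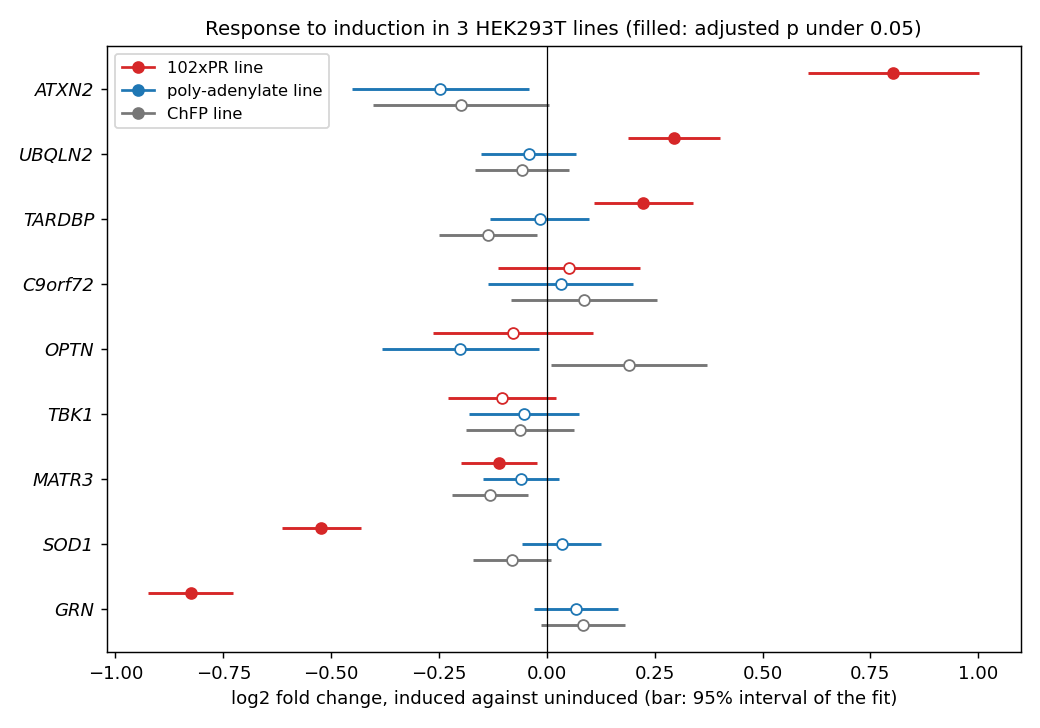
Log2 fold change of each gene on induction (x axis) in the 102xPR, poly-adenylate and ChFP lines, with 95% intervals of the fit as bars and filled points where the adjusted p was under 0.05. Filled points appear for 6 genes of the 102xPR line, from -0.82 for GRN to 0.80 for ATXN2, and for no gene of the other lines.

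In the control line, ChFP induction changed none of the 9 genes by edgeR (2.01% of all genes passed). At an unadjusted p under 0.05 there were 3 (MATR3, TARDBP and OPTN). The share of all genes at an unadjusted p under 0.05 was not counted, here or in the comparisons below. DESeq2 called 1, MATR3 (log2 fold change -0.14, DESeq2 adjusted p = 0.0306), and limma-voom called none. MATR3 was 560, 543 and 552 CPM in uninduced and 487, 492 and 531 CPM in induced ChFP cells, without overlap, and edgeR gave a log2 fold change of -0.13 ± 0.04 (adjusted p = 0.0958). The uninduced and induced ChFP libraries did not overlap for 4 of 9 genes (ATXN2, MATR3, TARDBP and TBK1, all lower after induction), where 24.3% of all genes did not overlap. Uninduced ChFP libraries were all in set A and induced replicates 1 and 2 in set B. Within set A, where replicate 3 was the only induced ChFP library, the log2 fold change was -0.04 for MATR3 and -0.06 for ATXN2.

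In the poly-adenylate line, induction also changed none of the 9 by edgeR (1.08% of all genes passed). At an unadjusted p under 0.05 there were 2, ATXN2 and OPTN, and DESeq2 and limma-voom called none. ATXN2 was 52.1, 59.6 and 66.2 CPM in uninduced and 48.7, 51.6 and 49.8 CPM in induced cells. It was the only 1 of the 9 whose groups did not overlap (20.5% of all genes did not), with a log2 fold change of -0.25 ± 0.10 (edgeR adjusted p = 0.205). Without uninduced replicate 1 it passed (-0.33, edgeR adjusted p = 0.0456). That replicate was the only uninduced poly-adenylate library of set B, and within set B the log2 fold change of ATXN2 was -0.06. OPTN went from 26.0, 23.2 and 21.0 CPM to 21.5, 18.5 and 21.2 CPM, with overlapping groups and a log2 fold change of -0.20 ± 0.09 (edgeR adjusted p = 0.239).

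The difference of responses between lines was tested in the same fit. Against the ChFP response, the 102xPR response differed for 5 of the 9 genes, where 58.3% of all genes differed. ATXN2 had the largest difference among the 9, 1.00 ± 0.14 on the log2 scale (edgeR adjusted p = 4.79e-06). With the library set as a term it was 0.62 ± 0.10 (edgeR adjusted p = 3.54e-06). GRN differed by -0.91 ± 0.07 (edgeR adjusted p = 1.96e-10) and SOD1 by -0.44 ± 0.06 (2.37e-06). TARDBP differed by 0.36 ± 0.08 (edgeR adjusted p = 0.000398) and UBQLN2 by 0.35 ± 0.07 (0.000299). MATR3, although it passed within the 102xPR line, did not pass for the difference from its ChFP response (0.02, 95% interval -0.10 to 0.14). The interval for C9orf72 was -0.27 to 0.20 and that for TBK1 -0.22 to 0.14. OPTN had a difference of -0.27 ± 0.13 (edgeR adjusted p = 0.0708), and passed without induced 102xPR replicate 1 (0.0197) or without induced ChFP replicate 2 (0.0278).

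Against the poly-adenylate response, which shares the 102xPR libraries with the comparison above, 5 of the 9 differed, where 58.4% of all genes did. The differences were 1.05 ± 0.14 for ATXN2 (edgeR adjusted p = 2.87e-06) and -0.89 ± 0.07 for GRN (2.19e-10). They were -0.56 ± 0.06 for SOD1 (edgeR adjusted p = 8.13e-08), 0.34 ± 0.07 for UBQLN2 (0.000482) and 0.24 ± 0.08 for TARDBP (0.011). With the library set as a term, ATXN2 differed by 0.66 ± 0.10 and TARDBP no longer passed (0.15, edgeR adjusted p = 0.154). MATR3 did not pass in the fit without that term (-0.05, edgeR adjusted p = 0.487) and passed with it (-0.16 ± 0.06, 0.0343). The poly-adenylate and ChFP responses differed for none of the 9 by edgeR, DESeq2 or limma-voom (edgeR called 0.0259% of all genes), and for 1, OPTN, at an unadjusted p under 0.05. OPTN had opposite signs in the 2 lines, and their difference was -0.39 ± 0.12 (edgeR adjusted p = 0.257).

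Induced cells of the 3 lines were also compared directly. Induced 102xPR against induced ChFP cells differed for 6 of the 9 genes (66.8% of all genes), and against induced poly-adenylate cells for 5 (69.2% of all genes). GRN differed by -0.74 ± 0.05 and -0.78 ± 0.05 on the log2 scale, and ATXN2 by 0.73 ± 0.10 and 0.93 ± 0.10, in this order. SOD1 differed by -0.41 ± 0.04 and -0.50 ± 0.04, UBQLN2 by 0.36 ± 0.05 and 0.44 ± 0.05, and TARDBP by 0.30 ± 0.06 and 0.28 ± 0.06. All of these passed by edgeR. MATR3 did not pass against induced ChFP cells (-0.06, edgeR adjusted p = 0.183), and passed with the library set as a term (-0.09 ± 0.04, 0.0223). In the authors' deposited table for 102xPR, whose log2 fold changes ranked genes most like the comparison of induced 102xPR with induced ChFP cells, GRN had -0.72, ATXN2 0.73 and C9orf72 0.03.

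OPTN was the member that differed between induced lines without passing on induction. It had 20.1, 16.4 and 17.3 CPM in induced 102xPR cells and 26.3, 22.4 and 26.1 CPM in induced ChFP cells, without overlap. The log2 difference was -0.48 ± 0.09 (edgeR adjusted p = 4.7e-05). Induced poly-adenylate cells lay between, at 21.5, 18.5 and 21.2 CPM, overlapping with 102xPR (-0.19 ± 0.09, edgeR adjusted p = 0.0655). Without induction, OPTN was already lowest in the 102xPR line, 18.8 ± 0.59 CPM against 21.9 ± 0.49 in ChFP and 23.4 ± 2.53 in poly-adenylate cells. Its difference from uninduced poly-adenylate cells passed (-0.31 ± 0.09, edgeR adjusted p = 0.0335) and that from uninduced ChFP cells did not (-0.21 ± 0.09, 0.105). The first of these calls was lost without any 1 of the 3 uninduced 102xPR libraries (edgeR adjusted p = 0.057, 0.0931 and 0.102 without replicates 1, 2 and 3). It was also lost without uninduced poly-adenylate replicates 1 or 2 (0.113 and 0.0905), and with only the compared groups in the edgeR fit (0.0577).

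Among uninduced cells, edgeR called 1 of the 9 genes, GRN, between the 102xPR and ChFP lines, where 12.2% of all genes differed, and 1 between the 102xPR and poly-adenylate lines (OPTN, 7.82% of all genes). GRN was 149, 140 and 143 CPM in uninduced ChFP and 169, 156 and 160 CPM in uninduced 102xPR cells, a log2 difference of 0.17 ± 0.05 (edgeR adjusted p = 0.0232). GRN was thus higher in the 102xPR than in the ChFP line before induction and lower after it. The uninduced call was lost without any 1 of the 3 ChFP libraries (edgeR adjusted p = 0.0511, 0.101 and 0.0642) or without 102xPR replicate 1 or 3 (0.105 and 0.0566). It was also lost with the library set as a term (0.08 ± 0.05, edgeR adjusted p = 0.726), a fit in which no gene of the table passed by edgeR. ATXN2 was lower in uninduced 102xPR (50.8, 57.2 and 56.1 CPM) than in uninduced ChFP cells (64.7, 66.8 and 66.0 CPM), without overlap, but did not pass by edgeR (-0.27 ± 0.10, adjusted p = 0.0713). It passed with DESeq2 (adjusted p = 0.0404) and with only the compared groups in the edgeR fit (0.000658), and had 0.02 ± 0.07 with the library set as a term (edgeR adjusted p = 0.974). OPTN passed with only the compared groups (-0.21 ± 0.07, edgeR adjusted p = 0.0256). Poly-adenylate cells differed from ChFP cells in none of the 9, uninduced (0.104% of all genes) or induced (0.939%), by edgeR, DESeq2 or limma-voom. At an unadjusted p under 0.05 there were 2 in each case, TBK1 and MATR3 in uninduced and OPTN and TBK1 in induced cells. The libraries of these 2 lines did not overlap for 3 of the 9 uninduced (16.5% of all genes) and for 5 induced (20.9%). Between them induced, OPTN passed with the replicate number as a block (edgeR adjusted p = 0.044), with the library set as a term (0.0437) and without induced ChFP replicate 2 (0.0425).

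Of 32 other genes linked to ALS and frontotemporal dementia, 29 were tested, and 24 of them changed on 102xPR induction, 13 up and 11 down, with a median log2 fold change of 0.10. For this and the lists that follow, the shares of all genes tested on 102xPR induction were 67.3% changed, 33.8% up and 33.4% down, with a median of -0.01. ANXA11, which tethers RNA granules to lysosomes, fell by 0.80 ± 0.05 on the log2 scale. SPG11, needed for the regeneration of lysosomes, rose by 0.95 ± 0.06. The actin-binding PFN1 fell by 0.50 ± 0.04 and the RNA-binding HNRNPA1 by 0.49 ± 0.05. ANXA11 and GRN were thus the most lowered of the 2 sets apart from ANG (-1.08 ± 0.26), and ATXN2 was exceeded in the upward direction by SPG11, UNC13A and NEFH. UNC13A, NEFH and ANG were named after their values were seen.

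**Figure D3:**
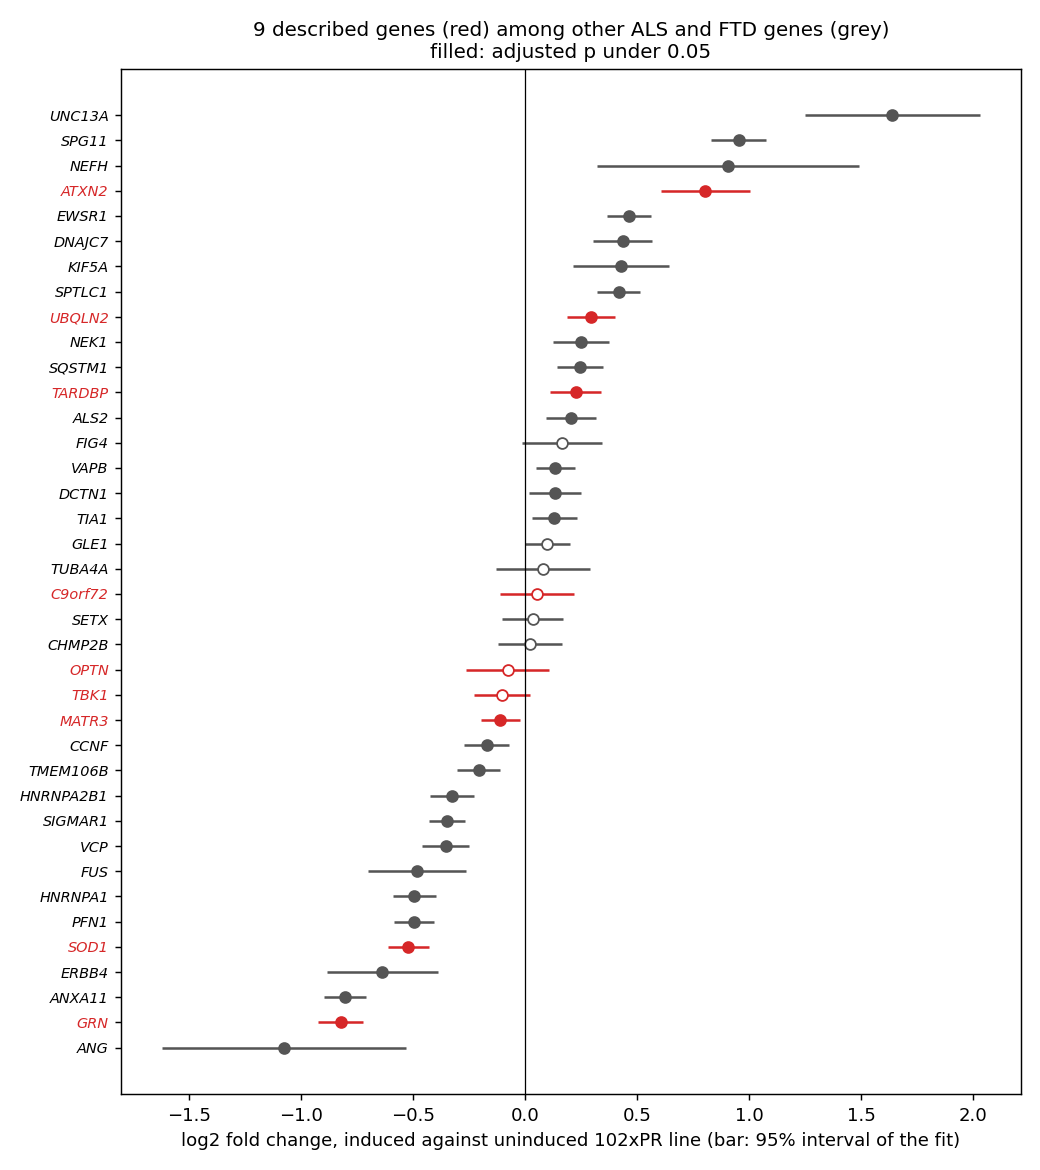
Log2 fold change on induction of 102xPR (x axis) for the 9 described genes (red) and 29 other ALS and frontotemporal dementia genes (grey), sorted by value, with 95% intervals of the fit and filled points where the adjusted p was under 0.05. The 9 genes are spread over the range from -0.82 to 0.80, with C9orf72 near 0.

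The genes around each member were counted in the same way, in 7 further lists. C9orf72 forms a complex with SMCR8 and WDR41, and these partners moved in opposite directions while C9orf72 did not pass. SMCR8 rose from 80.8 ± 2.1 to 107.5 ± 5.01 CPM (log2 fold change 0.41 ± 0.06, edgeR adjusted p = 1.19e-06). WDR41 fell from 85.8 ± 1.22 to 64.5 ± 4.99 CPM (-0.41 ± 0.07, edgeR adjusted p = 3.03e-05). With the RAB and ARF GTPases linked to the complex, 7 genes were tested, of which 4 rose and 3 fell (33.8% and 33.4% of all genes), RAB39B rising by 1.05 ± 0.10 on the log2 scale and RAB7A falling by 0.28 ± 0.06.

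Around TBK1 and OPTN, 17 autophagy receptors, adaptors and initiation factors were tested. Of these 7 rose, 6 fell and 4 did not pass, with a median of 0.09 (67.3% of all genes changed). ATG9A, the membrane scramblase of early autophagosomes, fell by 0.81 ± 0.05, and the initiating kinase ULK1 by 0.67 ± 0.05. NBR1, an autophagy receptor, rose by 0.46 ± 0.04. IKBKE, the paralog of TBK1, fell by 1.14 ± 0.10 on the log2 scale, where TBK1 itself had -0.10.

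Around UBQLN2, 9 ubiquilins, shuttle factors, ubiquitin receptors and ubiquitin genes were tested. Of these, 6 rose, 2 fell and 1 did not pass, with a median of 0.24 (33.8% of all genes rose and 33.4% fell). The shuttle factor RAD23B rose by 0.31 ± 0.04 on the log2 scale, and the proteasome's ubiquitin receptor PSMD4 by 0.44 ± 0.04. The paralog UBQLN1 rose from 232 ± 14.0 to 306 ± 9.23 CPM (0.40 ± 0.06, edgeR adjusted p = 6.38e-06), while the paralog UBQLN4 did not pass (-0.11 ± 0.06, edgeR adjusted p = 0.106).

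Around GRN, 13 lysosomal genes were tested, of which 10 fell, 1 rose and 2 did not pass, with a median of -0.32 (33.4% of all genes fell and 33.8% rose). CTSD, the protease cathepsin D, went from 212 ± 7.14 to 122 ± 8.29 CPM (-0.80 ± 0.06, edgeR adjusted p = 4.55e-11). Cathepsin B (CTSB) fell by 0.70 ± 0.07 and the membrane protein LAMP2 by 0.44 ± 0.04. The 1 gene that rose was TFE3, a transcription factor of lysosomal genes, with a log2 fold change of 1.12 ± 0.05 (edgeR adjusted p = 5.36e-15).

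Around SOD1, all 9 genes tested for handling superoxide, peroxide and copper fell, with a median of -0.49 (33.4% of all genes fell). PRDX1, a peroxiredoxin, fell by 0.69 ± 0.06, the copper chaperone ATOX1 by 0.62 ± 0.06, the copper importer SLC31A1 by 0.49 ± 0.05 and the mitochondrial dismutase SOD2 by 0.42 ± 0.05. CCS, the chaperone that loads copper into SOD1, went from 23.5 ± 1.84 to 16.2 ± 1.46 CPM (-0.54 ± 0.14, edgeR adjusted p = 0.00245). Against the ChFP response, 8 of these 9 were lower, as were 30.3% of all genes.

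Around the RNA-binding members, 12 paralogs and partners were tested, of which 3 rose, 2 fell and 7 did not pass, with a median of 0.05 (67.3% of all genes changed). ATXN2L, the paralog of ATXN2, rose from 172 ± 5.46 to 288 ± 27.8 CPM (0.74 ± 0.07, edgeR adjusted p = 1.28e-08), near the 0.80 of ATXN2. The splicing factor SFPQ rose by 0.31 ± 0.05, while HNRNPA1, counted above, and the RNA helicase MOV10 (0.44 ± 0.05) fell. Of 15 tested genes whose transcripts are known to take up cryptic exons when TDP-43 is lost, 4 rose and 9 fell, with a median of -0.24 (33.8% of all genes rose and 33.4% fell). PFKP fell by 1.41 ± 0.06, AGRN by 1.33 ± 0.11, SYT7 by 0.95 ± 0.08 and INSR by 0.76 ± 0.07, and UNC13A rose by 1.64 ± 0.19. Counts per gene do not show whether a cryptic exon was used.

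**Figure D4:**
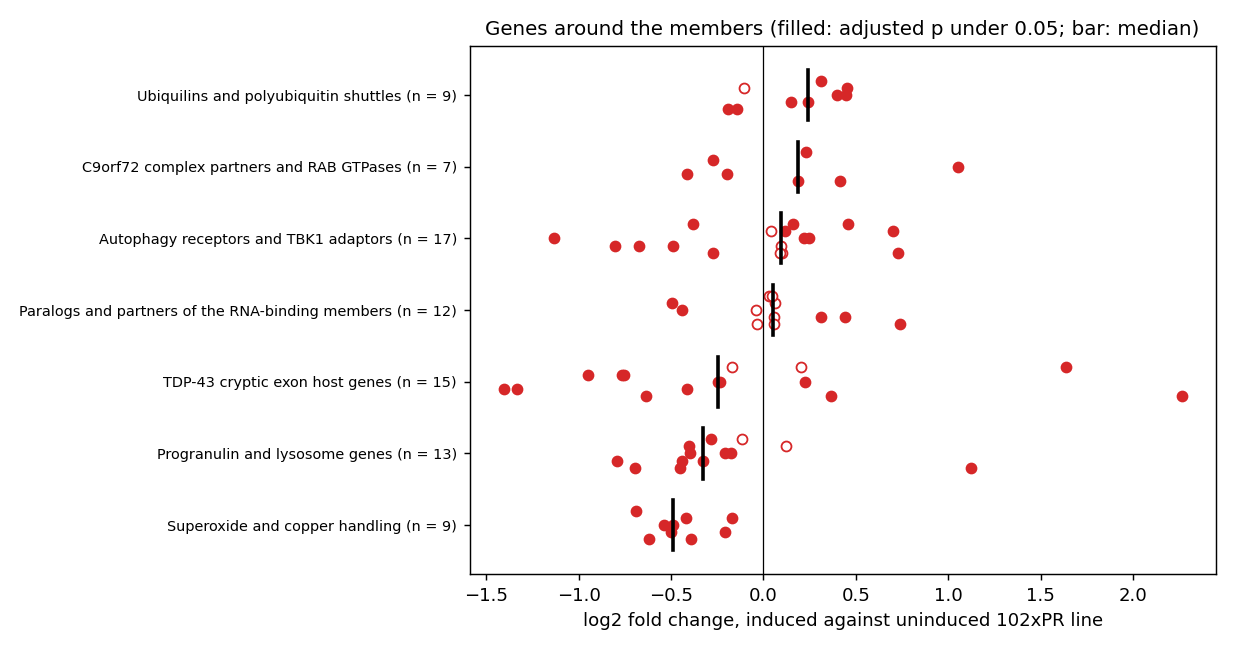
Log2 fold change on induction of 102xPR (x axis) for the genes of 7 lists around the members (rows), 1 point per gene, filled where the adjusted p was under 0.05, with the median as a black bar. All 9 points of the superoxide and copper list lie below 0, and the medians run from -0.49 for that list to 0.24 for the ubiquilin and shuttle list.

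Over the 8 lists, 106 distinct genes were tested, and 85 (80.2%) changed on 102xPR induction, against 67.3% of all genes. The lists were chosen with earlier results of these data known, so neither this share nor those of single lists can be read as a test. In the poly-adenylate line 1 of the 106 passed (1.08% of all genes), and in the ChFP line 7 (6.6%, against 2.01% of all genes). Of the named genes above, AGRN was among those 7, with a log2 fold change of 0.42 in the ChFP line (edgeR adjusted p = 0.0423), the opposite sign to its change in the 102xPR line, and so was IKBKE (0.40, 0.0341).

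For each member, the genes whose log2 CPM followed it most closely over the 18 libraries were listed among 10524 genes, as a description. For GRN, SOD1, ATXN2, UBQLN2 and TARDBP the induced 102xPR libraries stood apart from the other 15, so the 18 points form 2 clusters. GRN was most like GPC1 (r = 0.995), FADS2 (0.991) and PPM1F (0.991), and SOD1 like MSMO1 (0.987), CACYBP (0.985) and KDELR2 (0.982). ATXN2 was most like WBP11 (0.976), CCNK (0.975) and DNMBP (0.975). UBQLN2 was most like PLAA (0.972), KDM2A (0.969) and PMS1 (0.969), and TARDBP like TNPO1 (0.964), CUL3 (0.957) and C17orf80 (0.956). MATR3 was most like PHF10 (0.944), CPNE3 (0.929) and TMEM131L (0.924). Likeness was looser for OPTN, led by ATP8A1 (0.894), YPEL2 (0.871) and ASAP3 (0.868), and for TBK1, led by ITGAV (0.858), OTUD6B (0.845) and ACTR2 (0.833). C9orf72 had the lowest values of the 9, with COQ10B (0.772), POGLUT1 (0.757) and RPL23AP82 (0.746).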

How the data were processed

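A gene count table of 18 libraries, with raw whole-number counts (15020739 to 27331102 per library), was deposited by the authors. The submitters' processing notes name build hg38, HISAT2 2.1.0 and featureCounts, besides DESeq2 1.30.1, cutadapt 3.4 and bcl2fastq 2.20.0.422. The labels' protocols describe a cleared detergent lysate as the RNA source, so nuclear RNA may be under-represented. For the annotation and the strand setting of this step, no source used here gives a value. The authors also deposited 2 tables of comparisons with a mean normalized signal, log2 fold changes and p-values, whose contrasts are not stated. The table for 102xPR was matched to a comparison by correlation of its log2 fold changes across genes (Spearman 0.992).

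Genes were filtered with edgeR 4.0.16 (filterByExpr, minimum count 10), scaled with TMM factors and fitted with its robust quasi-likelihood model (R 4.3.3) over 18 libraries with 1 term per group. For each of 12 contrasts, Benjamini-Hochberg adjusted p-values under 0.05 were called. Rows without a symbol (550, with 0.041% of counts) stayed in the fit. Common biological variation was 5.75%. Intervals cover 95% by the fit's degrees of freedom. Alternatives were DESeq2 1.42.0, limma-voom (limma 3.58.1), library totals, no filter, a filter of 50 counts in 3 libraries, the replicate number as a block, only the groups compared, each library left out, and, chosen after seeing the data, the library set as a term or 1 set alone. Likeness used log2 CPM (prior count 2) of genes with a mean of 3 or more.

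The 9 genes and all lists were chosen with earlier results of these data known. The rule for named genes took the 9 members, up to 4 genes of each list with the smallest adjusted p on 102xPR induction, fixed partners and paralogs (SMCR8, WDR41, UBQLN1, UBQLN4, ATXN2L, CCS), and the 3 most alike genes of each member. A gene in several lists (5 genes) counts in each. Not every gene allowed by this rule is reported here. Exon lengths and overlaps are from GENCODE 29 on GRCh38, promoter windows from RefSeq on GRCh38.p14.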

Additional observations from a re-analysis of the deposited data

Results flagged for a closer look

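The response to 102xPR induction differed from the response of a control line by a test of the difference itself for 5 genes, in both comparisons. These comparisons share the 102xPR libraries. Of all genes, 58.3% differed from the ChFP response and 58.4% from the poly-adenylate response. Against the ChFP line the log2 differences were -0.91 for GRN, -0.44 for SOD1, 1.00 for ATXN2, 0.35 for UBQLN2 and 0.36 for TARDBP. Against the poly-adenylate line they were -0.89 for GRN, -0.56 for SOD1, 1.05 for ATXN2, 0.34 for UBQLN2 and 0.24 for TARDBP. In each of the 5 genes the 3 induced 102xPR libraries lay on the same side of all 3 uninduced 102xPR libraries. The same held for 70.0% of all genes. With the library set as a term, the ATXN2 differences were 0.62 and 0.66 and the TARDBP difference from poly-adenylate did not pass (edgeR adjusted p = 0.154). The part of the library set in these differences was not tested beyond that fit.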

How the results depend on the processing

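For single genes, 1698 results were recomputed. Of these, 1659 stayed on the same side of the threshold, 18 fell out of it and 21 came into it. Among results that passed in the main fit or the alternative, 0 changed direction. A result that passed in neither counted as the same even where its sign changed. For C9orf72 in the 102xPR line the log2 fold changes ran from -0.02 to 0.19. In the 102xPR line the counts of genes and of members that passed stayed within 1.5 times under every alternative run, as did those for both differences of responses and both comparisons of induced 102xPR cells. The calls of GRN, SOD1, ATXN2, UBQLN2 and TARDBP in the 102xPR line held in all 15 alternatives. The counts that moved were those of other comparisons, from 4 genes for the poly-adenylate minus ChFP response to 1881 between uninduced 102xPR and ChFP cells, and the cause was not tested.

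With DESeq2, genes past the threshold were 520 in the poly-adenylate line, 603 in the ChFP line (members 1), 106 for the poly-adenylate minus ChFP response, 386 between these lines induced and 35 uninduced, and members were 2 between uninduced 102xPR and ChFP cells. With library totals 47 genes differed between induced poly-adenylate and ChFP cells, and without a filter 11 for the difference of their responses. With only the groups compared, genes were 19 in the poly-adenylate line, 20 between induced and 2 between uninduced poly-adenylate and ChFP cells, 3649 (members 3) between uninduced 102xPR and ChFP cells and 653 (members 0) between uninduced 102xPR and poly-adenylate cells. With the library set as a term, genes were 13 in the poly-adenylate line, 163 in the ChFP line, 214 for the difference of their responses, 455 (members 1) between them induced, 0 (members 0) between uninduced 102xPR and ChFP and 712 between uninduced 102xPR and poly-adenylate cells. Within set A the ChFP line had 151 and within set B the poly-adenylate line 62.

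Deviations from the group mean were correlated between uninduced and induced libraries of a line. For same-numbered libraries the values were 0.0693, 0.0182 and 0.00212 in the 102xPR line. They were 0.166, 0.0265 and 0.139 in the poly-adenylate and 0.113, 0.0168 and 0.00645 in the ChFP line. Differently numbered libraries ran from -0.145 to 0.0757. Whether same-numbered libraries pair was not tested. With the replicate block, genes were 269 in the poly-adenylate line, 703 in the ChFP line, 47 for the difference of their responses and 386 (members 1, OPTN, edgeR adjusted p = 0.044) between them induced. OPTN also passed for the 102xPR minus ChFP response (0.0405) and between induced 102xPR and poly-adenylate cells (0.0349).

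Leaving out each library in turn gave 29 to 1397 genes (members 0 to 1) in the ChFP line, 2 to 1241 (0 to 1) in the poly-adenylate line and 1 to 8 for the difference of their responses. Between poly-adenylate and ChFP cells it gave 0 to 387 induced (0 to 1) and 3 to 23 uninduced. For uninduced 102xPR cells it gave 331 to 910 (0 to 1) against ChFP and 335 to 2153 (0 to 1) against poly-adenylate cells.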

Other observations

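Before induction, the 102xPR line differed from the ChFP line in 18 of the 106 list genes (17.0%, against 12.2% of all genes). Of these, 11 were higher in 102xPR cells, among them CTSD (0.24 on the log2 scale, edgeR adjusted p = 0.0141) and PRDX1 (0.20, 0.025), which were then lowered on induction, and 7 were lower, among them TANK (-0.33, 0.0197). These 3 were chosen after their values were seen. All uninduced ChFP libraries were in library set A and all uninduced 102xPR libraries in set B, so line and library set cannot be told apart here.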
